A study of Arabidopsis thaliana and Zea mays with 12 samples.

Results

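Cold-regulated, evening and starch breakdown genes were examined in leaves of 2-week-old Arabidopsis thaliana on 6 one-colour ATH1 arrays, 3 of the phenotype labelled Br and 3 of the phenotype labelled Ag. The 5 genes are COR27, COR15A, COR15B, GI and PWD. They were selected on their signals across these same 6 arrays and are read by 1 probe set each, of 22746 probe sets in all, found by gene symbol in the platform annotation. Where a symbol had more than 1 probe set, the brightest was taken, which concerned PWD alone. The remaining 6 of the 12 arrays of the series held maize RNA and were not used here.

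The labels do not say what Br and Ag stand for, and give no genotype or treatment for either. Both sets of plants grew from seed for 2 weeks and were cut near the middle of the light period. RNA of several plants was pooled for each array. The arrays of a phenotype are numbered 1 to 3 as biological replicates, and the labels do not say whether a number marks a shared sowing, harvest or hybridisation. The arrays numbered 1 are called the first arrays below, and those numbered 2 and 3 the later arrays. Values are deposited probe set signals on a linear scale. Differences are on the scale log2(signal + 16) after quantile normalisation, where 1 unit is a doubling for bright genes and dim genes are understated. In leaf RNA of this kind, fewer cells that express a gene and less of its RNA per cell cannot be told apart.

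Cold exposure of Arabidopsis induces a set of COR genes through the CBF transcription factors, and several of their products protect membranes when cells freeze. The circadian clock gates that response and drives daily rhythms in the same genes. Evening-phased genes such as GI reach their highest transcript level towards the end of the light period. Leaf starch, made by day, is broken down at night after glucan phosphorylating enzymes have loosened the granule surface, and transcripts of several of these enzymes cycle daily as well.

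COR27 encodes a small nuclear protein that is induced by cold and acts in the clock. Its signal was 207, 6.66 and 1.57 on Br arrays 1, 2 and 3, against 242, 27.2 and 0.81 on Ag arrays 1, 2 and 3. The gene was bright on both first arrays and close to 0 on the third array of each phenotype. Detection calls were not used, so a value near 0 is a low signal and not a call of absence.

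COR15A and COR15B encode closely related chloroplast proteins that stabilise membranes during freezing. They are neighbours on 1 chromosome, with 0 annotated genes between them in the TAIR10.1 gene table, and each was read by a probe set of its own. COR15A had a signal of 1444, 289 and 393 on the Br arrays, against 1539, 730.0 and 173 on the Ag arrays. COR15B had a signal of 599.9, 108 and 123 on the Br arrays, against 1336, 499 and 97.8 on the Ag arrays. Both genes were highest on the first arrays, and the second Ag array came next, above the remaining 3.

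GI encodes GIGANTEA, a large protein that links the clock to flowering by day length and stabilises the F-box photoreceptor ZTL. Its signal was 594, 111 and 124 on the Br arrays, against 493, 326 and 152 on the Ag arrays. PWD, phosphoglucan water dikinase, adds phosphate to starch glucans that another dikinase has already phosphorylated. Its signal was 630.0, 119 and 147 on the Br arrays, against 578, 214 and 126 on the Ag arrays. For GI and PWD the first Br array was the highest of the 6 and the first Ag array the second highest.

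**Figure D1:**
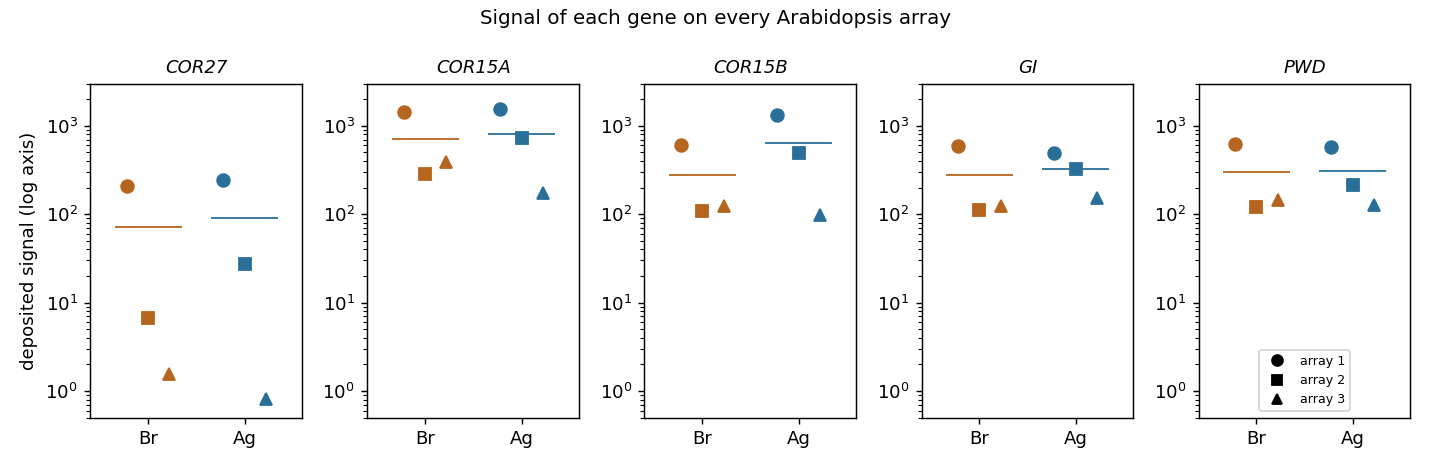
Deposited signal (log axis) of the 5 genes on every array, Br left and Ag right; marker shape gives the array number and lines are phenotype means (n = 3 arrays each). In every panel both circles (first arrays) lie above all squares and triangles.

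The values divided by array number. For all 5 genes both first arrays read above all 4 later arrays. The same held for 9.05% of the 22746 probe sets, and since the genes were chosen with these values in view, nothing is read from the count and no test is given. The mean signal of COR27 was 224 ± 24.5 on the 2 first arrays, against 9.05 ± 12.3 on the 4 later arrays (SD). For COR15A it was 1492 ± 66.9, against 396 ± 239.9. For COR15B it was 968 ± 520.3, against 207 ± 195. For GI it was 543 ± 71.1, against 178 ± 100.02, and for PWD 604 ± 36.8, against 151 ± 43.2.

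The size of this division was similar in both phenotypes for some genes and not for others. The difference between the first array and the mean of the later ones, in log2 units, was 3.49 in Br and 3.21 in Ag for COR27. It was 2.07 in Br and 2.06 in Ag for COR15A, and 2.26 in Br and 2.49 in Ag for COR15B. PWD had 2.15 in Br and 1.73 in Ag. GI had the widest gap between phenotypes, 2.22 in Br and 1.10 in Ag, with the second Ag array at 326. All 5 genes reached 1 log2 unit in both phenotypes, as did 0.396% of all probe sets.

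Averaged over the phenotypes, the difference was 3.35 for COR27, the largest of the 22746 probe sets. COR15B, at 2.37, ranked 9, COR15A, at 2.07, ranked 21, PWD, at 1.94, ranked 28, and GI, at 1.66, ranked 46. The median of the 5 genes was 2.07, and that of all probe sets -0.0072. The genes were chosen with these values in view, so nothing is read from these ranks. The value of COR27 depended on the constant added before the logarithm, since its later signals were near 0: it was 5.29 with a constant of 1 and 1.98 with 64.

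**Figure D2:**
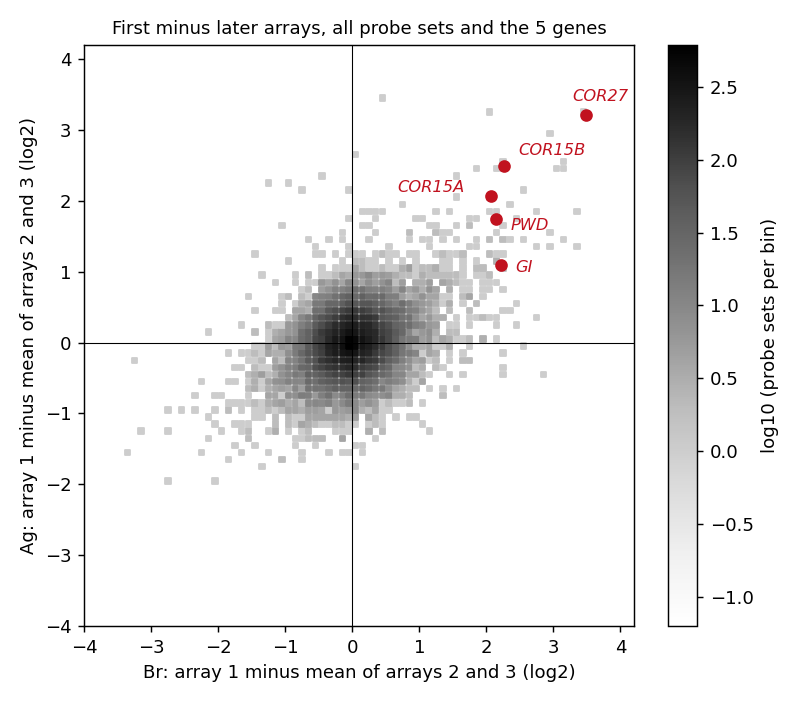
First array minus the mean of the later arrays (normalised log2), in Br on the horizontal axis and in Ag on the vertical axis; grey squares are bins of all 22746 probe sets, shaded by the log10 number in each, and red points are the 5 genes. The 5 genes lie in the upper right, with COR27 farthest out at 3.49 and 3.21, and GI lowest on the Ag axis at 1.10.

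The second Ag array took an intermediate position. It read higher than the second and the third Br arrays and the third Ag array for all 5 genes, an order of arrays (both first arrays, then the second of Ag) found for 3.30% of all probe sets. On the normalised log2 scale it lay 64.1% of the way from the third to the first Ag array for COR15A. The share was 62.8% for GI, 59.8% for COR15B, 36.7% for COR27 and 33.0% for PWD. The share of COR27 depends on the constant added before the logarithm, since its signal on the third Ag array was 0.81. That share was not computed with another constant, so the place of COR27 among these genes is not read. The second and the third Br arrays were closer to each other, with differences (array 2 minus array 3) of 0.42 for COR27, -0.45 for COR15A, -0.17 for COR15B, -0.16 for GI and -0.28 for PWD. The same differences on the Ag arrays were 1.44, 1.95, 2.12, 1.00 and 0.69 in that order of genes.

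The study's own comparison was between the phenotypes, and here the differences of the 5 genes lay within their spread. Of the 5, 0 passed an adjusted p of 0.05 by limma and 0 had an unadjusted p under 0.05, whereas 2.08% of all probe sets passed the adjusted threshold and 16.1% had an unadjusted p under 0.05. With so few genes, a count of 0 is near these shares and is not a result about the 5 genes. Mean signals were 71.7 ± 117 in Br and 89.8 ± 132 in Ag for COR27 (SD, n = 3 arrays each). They were 709 ± 639 in Br and 814 ± 687 in Ag for COR15A, and 277 ± 280 in Br and 644 ± 632 in Ag for COR15B. For GI they were 276 ± 275 in Br and 324 ± 170 in Ag, and for PWD 299 ± 287 in Br and 306 ± 240 in Ag. The Br and Ag arrays overlapped for every one of the 5 genes. They did not overlap for 20.4% of all probe sets.

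All 5 fitted differences were below 0, with wide intervals. COR15B had the largest, a Br minus Ag log2 difference of -0.95 (95% interval -3.22 to 1.33, limma adjusted p = 0.70). It was -0.48 for GI (-2.05 to 1.09, adjusted p = 0.80), and -0.39 for COR27 (-3.30 to 2.52, adjusted p = 0.93). It was -0.15 for PWD (-1.84 to 1.54, adjusted p = 0.95) and -0.068 for COR15A (-2.09 to 1.95, adjusted p = 0.98). Intervals this wide include differences of over 1 log2 unit in either direction for each gene, so they do not show that the phenotypes are alike. The median over the 5 genes was -0.39, against -0.0018 over all probe sets. Because the 5 genes move together across arrays, their shared sign is not 5 separate observations.

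The residual SD of the fit, pooled over both phenotypes, was 2.01 log2 units for COR27, the largest of all 22746 probe sets. COR15B ranked 14 (1.57), COR15A 25 (1.39), PWD 50 (1.16) and GI 62 (1.07). These ranks follow in part from the division by array number and in part from the spread among the later arrays. The genes were chosen with these values in view, so nothing is read from the ranks. Which arrays were kept set the sign of 3 of the 5 differences. Leaving out the first Ag array, the COR27 difference was 0.68, that of COR15A 0.62 and that of PWD 0.43. Leaving out the first Br array instead, they were -1.56, -0.76 and -0.88. Leaving out the second or the third Br array also turned these 3 above 0, at 0.083 and 0.29 for COR27, 0.39 and 0.17 for COR15A and 0.27 and 0.13 for PWD; leaving out the second Ag array turned COR15A to 0.074. COR15B and GI stayed below 0 without any single array, between -1.89 and -0.12 and between -1.23 and -0.071.

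**Figure D3:**
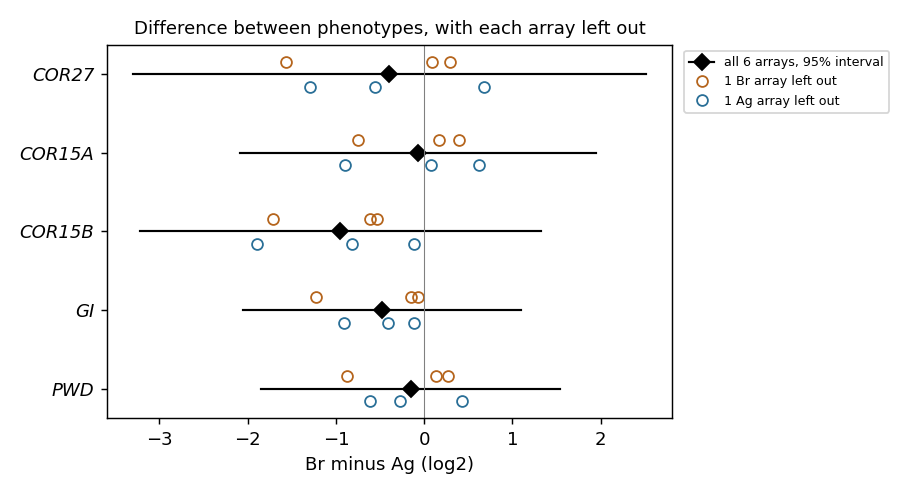
Br minus Ag difference (normalised log2) of the 5 genes. Diamonds and bars are the limma estimate from all 6 arrays with its 95% interval, and open circles the estimate with 1 Br array (above) or 1 Ag array (below) left out. Every interval spans 0, and the circles of COR27, COR15A and PWD fall on both sides of it.

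Compared at equal array number, Br and Ag stood in a different order at each number, with 1 array of each phenotype and so no test. The signal on the first Br array divided by that on the first Ag array was 0.86 for COR27, 0.94 for COR15A, 1.20 for GI and 1.09 for PWD. For COR15B it was 0.45, from 599.9 on the first Br array and 1336 on the first Ag array. At number 2 the Br array read below the Ag array for all 5 genes, at 0.25 of it for COR27, 0.40 for COR15A, 0.22 for COR15B, 0.34 for GI and 0.56 for PWD. At number 3 the Br array was above the Ag array for 4 of the 5, at 2.27 times for COR15A, 1.26 for COR15B and 1.16 for PWD, with both arrays near 0 for COR27, and below it for GI, at 0.82. With both first arrays left out of the fit, 0 of the 5 genes passed by limma, where 533 of 22746 probe sets did. With so few genes that count is not a result about them. The Br minus Ag differences ran from -0.88 for COR15B (adjusted p = 0.54) to -0.065 for COR15A (adjusted p = 0.98). GI then had -0.86 (adjusted p = 0.25), and this fit rests on 2 arrays per phenotype.

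The neighbouring genes COR15A and COR15B did not move in full parallel. COR15A minus COR15B, in normalised log2 units on the same array, was 1.25, 1.30 and 1.57 on the Br arrays, against 0.21, 0.55 and 0.72 on the Ag arrays. The mean was 1.37 ± 0.17 in Br and 0.49 ± 0.26 in Ag (SD, n = 3 each), and the phenotypes did not overlap. In deposited signal, COR15A read 2.41, 2.67 and 3.20 times COR15B on the Br arrays, against 1.15, 1.46 and 1.77 times on the Ag arrays. A ratio of 2 probe sets compares how they change between arrays and not the amounts of the 2 transcripts. This was 1 of 10 pairs among the 5 genes, singled out after its values were seen, and the only one of the 10 without overlap. Of single probe sets, 20.4% had no overlap between Br and Ag. The share over all pairs of probe sets was not computed, so nothing is read from this count. Sequence differences between the phenotypes under either probe set would change the ratio, and this was not tested.

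The genes other than COR27 kept more even distances from each other within Br than within Ag. COR15B minus GI was 0.014, -0.032 and -0.015 on Br arrays 1 to 3, against 1.39, 0.55 and -0.57 on the Ag arrays. GI minus PWD was -0.073, -0.084 and -0.21 in Br, against -0.22, 0.57 and 0.26 in Ag. Over the 6 pairs formed without COR27, the SD across the 3 arrays of a phenotype ran from 0.023 to 0.17 in Br and from 0.26 to 0.98 in Ag. It was smaller in Br for 6 of 6 pairs. For the 4 pairs with COR27 it ran from 0.77 to 0.93 in Br and from 0.54 to 1.24 in Ag, and it was smaller in Br for 2 of the 4. It was larger in Br for COR27 minus COR15A, 0.93 in Br and 0.71 in Ag, and for COR27 minus COR15B, 0.77 in Br and 0.54 in Ag. Over all pairs it was thus smaller in Br for 8 of 10. The pairs without COR27 were set apart after their values were seen. Those with COR27 rest on its signals near 0 on the third arrays, where the added constant shrinks its differences between arrays. The pairs share genes and arrays, so these are not independent. The share over other pairs of probe sets was not computed.

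**Figure D4:**
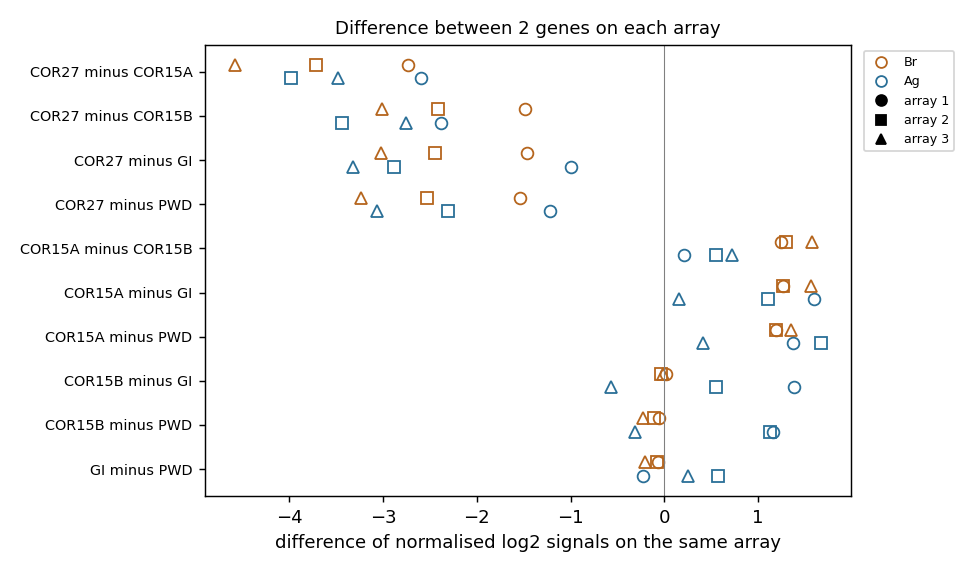
Difference of normalised log2 signals between 2 of the 5 genes on the same array, for all 10 pairs, Br in brown above Ag in blue; marker shape gives the array number. The brown and blue markers separate for COR15A minus COR15B, and the brown markers of COR15B minus GI lie within 0.014 and -0.032.

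Other genes of the cold response were read on the same arrays. Of a list of 23 cold-response genes, chosen with earlier results of these data known, 6 had a probe set with a listed gene, the 3 described above and 3 more. Between Br and Ag 0 of these 6 passed by limma and 0 had an unadjusted p under 0.05, beside 2.08% and 16.1% of all probe sets, so the count says nothing particular about cold-response genes. LTI30, which encodes a dehydrin that binds membranes, read 490.4, 128 and 202 on the Br arrays, against 416, 238 and 13.0 on the Ag arrays. COR47, for another dehydrin, read 2587, 1187 and 1500.3 on the Br arrays, against 2299, 1318 and 755 on the Ag arrays. The locus AT4G33980, which the annotation leaves without a gene name, read 143, 3.34 and 1.06 on the Br arrays, against 161, 24.4 and 7.35 on the Ag arrays.

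All 3 of these further cold-response genes were highest on both first arrays, as were 9.05% of all probe sets, and the list is not independent evidence of that order. The first minus later difference was 2.80 for AT4G33980, rank 4 of all probe sets, 1.93 for LTI30, rank 29, and 1.08 for COR47, rank 158. Their Br minus Ag differences were -0.62 for AT4G33980 (limma adjusted p = 0.83), 0.77 for LTI30 (0.77) and 0.42 for COR47 (0.71). The signs thus differed from those of the 5 genes for LTI30 and COR47. LTI30 was low on the third Ag array, as were COR15A and COR15B.

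Few other clock or starch genes had a probe set in the annotation used. Since 8730 probe sets had no listed gene, a gene not found here may still have a probe set on the array. Of 11 evening-phased clock genes GI alone had a listed probe set, and of 10 morning-phased ones 0. Of 22 starch breakdown genes, 3 had a listed probe set: PWD, DPE1 and AMY1. DPE1, the plastid disproportionating enzyme that acts on short glucans from starch, read 347, 115 and 99.6 on the Br arrays, against 346, 209.7 and 240.4 on the Ag arrays. Its first minus later difference was 1.61 in Br and 0.60 in Ag. AMY1, an alpha-amylase, was dim on all arrays, at 17.1, 14.1 and 17.9 in Br against 21.7, 11.2 and 13.3 in Ag, and its difference was 0.15. Between Br and Ag 0 of the 3 passed by limma (adjusted p = 0.95 for PWD, 0.55 for DPE1 and 0.96 for AMY1). Of all probe sets 2.08% passed, so the count says nothing particular about starch breakdown genes.

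Of 12 starch synthesis genes, SBE2.2, a starch branching enzyme, was the 1 with a listed probe set. Its signal was 206, 275 and 257 on the Br arrays, against 302, 318 and 420.2 on the Ag arrays. It was not high on the first arrays (first minus later difference -0.30). The Br arrays all read below the Ag arrays, with a log2 difference of -0.45 that missed the threshold (limma adjusted p = 0.25, unadjusted p = 0.033). Of all probe sets, 20.4% had no overlap between Br and Ag, and 16.1% had an unadjusted p under 0.05.

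A second probe set is listed under the symbol PWD, but for another locus, AT4G24450, for which the gene table also gives the synonym ATGWD2. Its signal was 47.2, 30.7 and 40.8 on the Br arrays, against 54.3, 67.4 and 88.4 on the Ag arrays. It did not share the pattern by array number (first minus later difference -0.095). Its Br arrays all lay below its Ag arrays, with a log2 difference of -0.67 that missed the threshold (limma adjusted p = 0.13). Br and Ag did not overlap for 20.4% of all probe sets.

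The genes with the most similar profiles were sought among 100 named probe sets. These had a mean signal of at least 100 and an SD of at least 0.5 log2 units. The 5 genes themselves were left out, as were loci without a gene name such as AT4G33980. Closest thus means closest among these 100 and not among all genes described here. Likeness was Pearson's r over the 6 arrays, a description of 6 points of which 2 stand far above the rest. The 3 most alike for each of the 5 genes came to 7 distinct genes. PWD was closest to PDC2, a pyruvate decarboxylase (r = 0.99), and SCPL49, of the serine carboxypeptidase-like family (0.989). COR27 was closest to SCPL49 (0.973), PDC2 (0.966) and CHL, a lipocalin of the chloroplast (0.935). COR15A was closest to SCPL49 (0.916), LTI30 (0.911) and COR47 (0.904).

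COR15B was closest to CHL (0.968), THIC (0.934) and BGLU44, of the beta-glucosidase family (0.866). GI was closest to THIC, a plastid enzyme of thiamine synthesis (0.974), then PDC2 (0.933) and SCPL49 (0.923). PDC2 read 488, 113 and 135 on the Br arrays, against 437, 164 and 141 on the Ag arrays. SCPL49 read 551, 215 and 218 on the Br arrays, against 462, 257 and 209.8 on the Ag arrays. All 7 genes were highest on both first arrays, which follows from choosing them for likeness to genes with that order. Between Br and Ag 0 of the 7 passed by limma, where 2.08% of all probe sets did.

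**Figure D5:**
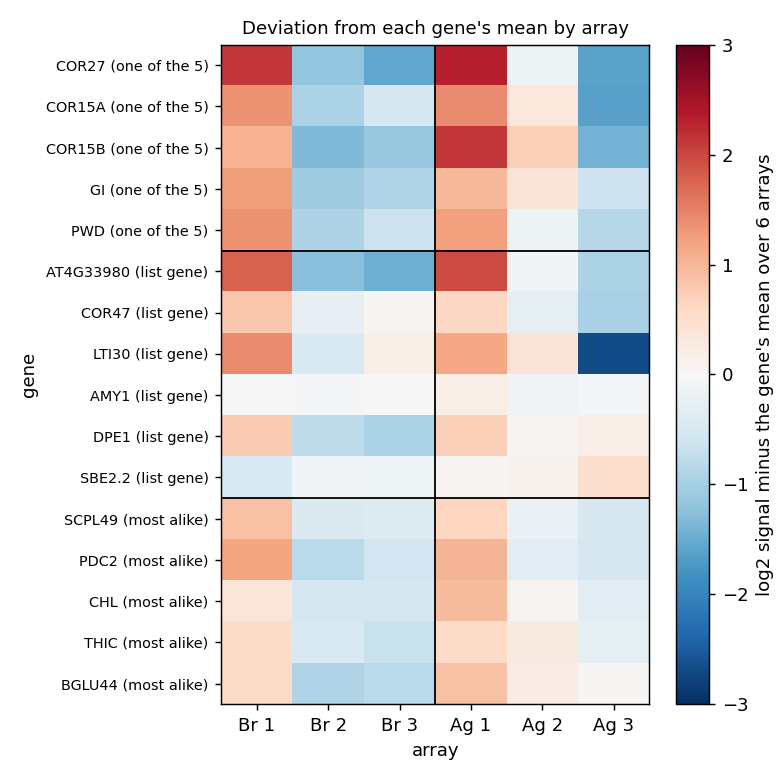
Normalised log2 signal of each gene minus its mean over the 6 arrays, by array (Br left, Ag right), for the 5 genes, the other genes of the cold and starch lists with a listed probe set, and the genes most alike. Columns Br 1 and Ag 1 are above the mean for the 5 genes, from 0.97 to 2.33, and AMY1 and SBE2.2 do not share the pattern.

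Some control values moved with the array number and others with the phenotype. The 25S ribosomal RNA control read 96.1 and 37.9 on the first Br and Ag arrays, and 8.14, 8.21, 13.6 and 18.6 on the later arrays. The 5S control read 30.0 and 26.1 on the first arrays, and 2.29 to 16.4 on the later ones. Spiked cre transcript read 6251, 3839 and 3831 on the Br arrays, against 6830, 6250 and 6490 on the Ag arrays, with the first Br array close to the Ag arrays. The ubiquitin 3'/5' ratio, a sign of RNA quality, was 0.91 to 1.21 in Br and 1.76 to 2.35 in Ag. The actin ratio was 1.20 to 1.74 in Br and 1.90 to 2.35 in Ag. That of GAPDH overlapped, at 0.72 to 0.80 in Br and 0.79 to 0.90 in Ag. The leaf genes RCA, LHCB4.1 and PSAE-1 were bright on all 6 arrays, at 4237 to 7185, and of 7 root markers 0 had a listed probe set. The part of these values in the pattern of the 5 genes was not tested.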

How the data were processed

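The deposited intensity values are linear probe set signals of one-colour arrays. On every array the mean without the lowest and highest 2% of probe sets is 100, so the authors had scaled the arrays before they were deposited. The summarising software is not given in the sources used here. After 64 control probe sets were removed, log2(signal + 16) was quantile normalised and fitted with limma 3.58.1 in R 4.3.3 (two-sided, Benjamini-Hochberg over all 22746 probe sets, threshold 0.05). Intervals are from the moderated SE. The number of arrays limits the precision. P-values of this fit are set against the spread between arrays of a phenotype. That holds the spread between RNA pools together with any shift that goes with the array number.

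Of the probe sets, 13513 had 1 gene in GEO's platform annotation, 503 several and 8730 none listed. Symbols and loci were updated by gene identifier through the TAIR10.1 table (13436 matched). The 5 genes and 7 gene lists were chosen with earlier results of these data known. Named beside the 5 were called list genes, up to 3 per list by first minus later difference, and the 3 most alike for each. Plots used matplotlib 3.10.9. 0 value columns lacked a sample.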

Additional observations from a re-analysis of the deposited data

How the results depend on the processing

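Under the alternatives other than leaving out a single array, the Br minus Ag difference of each of the 5 genes kept its sign and missed the threshold (lowest limma adjusted p = 0.25, for GI without the first array of both phenotypes). These were other scalings, pseudocounts of 1 and 64, a minimum mean signal of 50, trended robust variances, a replicate block and leaving out both first arrays. Without 1 array the differences ran from -1.56 to 0.68 for COR27, -0.90 to 0.62 for COR15A, -1.89 to -0.12 for COR15B, -1.23 to -0.071 for GI and -0.88 to 0.43 for PWD (lowest adjusted p = 0.19).

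The first minus later difference stayed above 0 under every alternative for these probe sets, but for COR27 it was 5.29 with a pseudocount of 1 and 1.98 with 64. Both first arrays read highest for all 5 genes, which were chosen with these values in view. The sign was thus close to fixed beforehand, and nothing is read from it. Without 1 array the first minus later difference ran from 2.98 to 3.70 for COR27, 1.57 to 2.53 for COR15A and 1.84 to 2.88 for COR15B. It ran from 1.10 to 2.23 for GI and 1.74 to 2.15 for PWD. Where a first array was left out, the value is that of the other phenotype alone and not an average. Both ends of the ranges of GI and PWD are such values. The probe set of the other locus listed as PWD gave -0.095.

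Over all probe sets 473 passed between Br and Ag, 148 with a pseudocount of 1. Leaving out Br array 1, 2 or 3 gave 884, 105 and 110, and leaving out Ag array 1, 2 or 3 gave 237, 119 and 143. The cause of these shifts was not tested.

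Across all probe sets, arrays of equal number were most alike for number 1. Deviations from the phenotype means correlated at 0.32, 0.029 and 0.11 for numbers 1, 2 and 3. The third Ag array correlated better with the second Br array (0.23). Deviations within a phenotype are not independent, so these values cannot settle whether the numbers mark pairs. With the replicate number as a block, 347 probe sets passed and 0 of the 5 genes did, with adjusted p of 0.33 for COR15B, 0.43 for COR27, 0.52 for GI, 0.79 for PWD and 0.97 for COR15A.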
